A study of Homo sapiens with 4 samples.

Results

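The genes described here encode molecular chaperones and folding enzymes: heat shock proteins of the HSP90, HSP70, HSP60/HSP10 and small classes, their J-domain (DNAJ) partners, the subunits of the cytosolic chaperonin TRiC (also called CCT), the protein disulfide isomerases and the lectin chaperones calreticulin and calnexin. The rule that selects them reads only gene names (HSPA, HSPB, HSPD, HSPE, HSPH, HSP90, DNAJA, DNAJB, DNAJC, CCT and PDIA genes, with TCP1, P4HB, CALR and CANX), and 57 of the 7698 protein-coding genes in the deposited table met the rule. By the location of their proteins, 28 were placed in the cytosol or nucleus, 16 in the endoplasmic reticulum (ER), 6 in mitochondria and 5 elsewhere or in no single place, and 2 were read-through genes that join a chaperone gene to its neighbour.

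Poly(A)-selected RNA from MDA-MB-231, a triple-negative breast cancer line of human origin, was sequenced to find transcripts that depend on PCBP2, an RNA-binding protein. The groups were untreated cells (libraries untreated 1 and 2) and cells given siPCBP2, a small interfering RNA that targets PCBP2 (libraries siPCBP2 1 and 2). The treatment field of the siPCBP2 samples names PCBP2 itself as what was transfected, against their titles and source descriptions, which set the groups here. The labels give the untreated cells no control RNA, so that transfection and loss of PCBP2 cannot be told apart, and no label states separate cultures within a group, which means that a p-value here rests on a spread between libraries that may be technical.

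Chaperones bind unfolded segments of proteins and release them, mostly in cycles of ATP binding and hydrolysis. HSP70 proteins receive their substrates from J-domain partners, HSP90 proteins act later in folding, and the chaperonins enclose a substrate in a chamber. In the ER, the lectin chaperones hold glycoproteins and the disulfide isomerases form and rearrange disulfide bonds. Heat shock factor HSF1 raises cytosolic and mitochondrial chaperone genes when unfolded proteins build up there, and the factors ATF6 and XBP1 raise those of the ER in the unfolded protein response.

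Values are FPKM, fragments relative to transcript length and library total, as far as the values themselves show the unit. They summed to between 352964 and 378204 per library, no counts were used, and the depth is unknown. PCBP2 measured 101.4 and 92.9 FPKM in untreated and 16.6 and 16.7 FPKM in siPCBP2 cells, a fall to 0.171 times the untreated mean (adjusted p = 0.0119 by limma), which goes with the titles. Across genes, which are not independent replicates, log2(FPKM + 1) correlated at r = 0.969 and 0.964 within groups and at 0.949 to 0.956 between groups. Of 10 markers of breast carcinoma lines 7 were listed: VIM, CD44, EGFR, KRT8, KRT18, EPCAM and ERBB2. VIM, the mesenchymal intermediate filament protein, measured 491 to 536 FPKM over the 4 libraries. ERBB2 measured 15.2 and 11.9 against 16.7 and 21.3 FPKM. The keratin gene KRT18 measured 85.5 and 86.2 against 45.9 and 44.9 FPKM (log2 fold change -0.90, adjusted p = 0.0847 by limma). Of 10 immune and blood markers only CD68 was listed (28.7 and 29.1 against 35.2 and 38.7 FPKM), and of 10 stromal and endothelial markers only FABP4 (0.719 and 0.489 against 1.59 and 3.41 FPKM). Both were higher in siPCBP2 libraries, and their part in any difference was not tested.

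The chaperone genes together took 1.94% and 1.86% of the summed FPKM in untreated and 1.71% and 1.85% in siPCBP2 libraries, so that the lower untreated share lay just above the higher siPCBP2 share. All 57 passed the filter on low values, at 1 FPKM or more in at least 2 libraries. Their mean levels over the 4 libraries ran from 4.36 to 843 FPKM with a median of 47.0, against a median of 17.0 over all genes tested, and 18 of the 57 reached 100 FPKM, as did 409 of the 7689 genes tested. The constitutive HSP70 gene HSPA8 had rank 23 among all listed genes, HSP90AB1 rank 29 and CALR rank 40. The J-domain genes were the lowest large family, with a median of 17.5 FPKM over 22 genes and none at 100 FPKM.

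**Figure D1:**
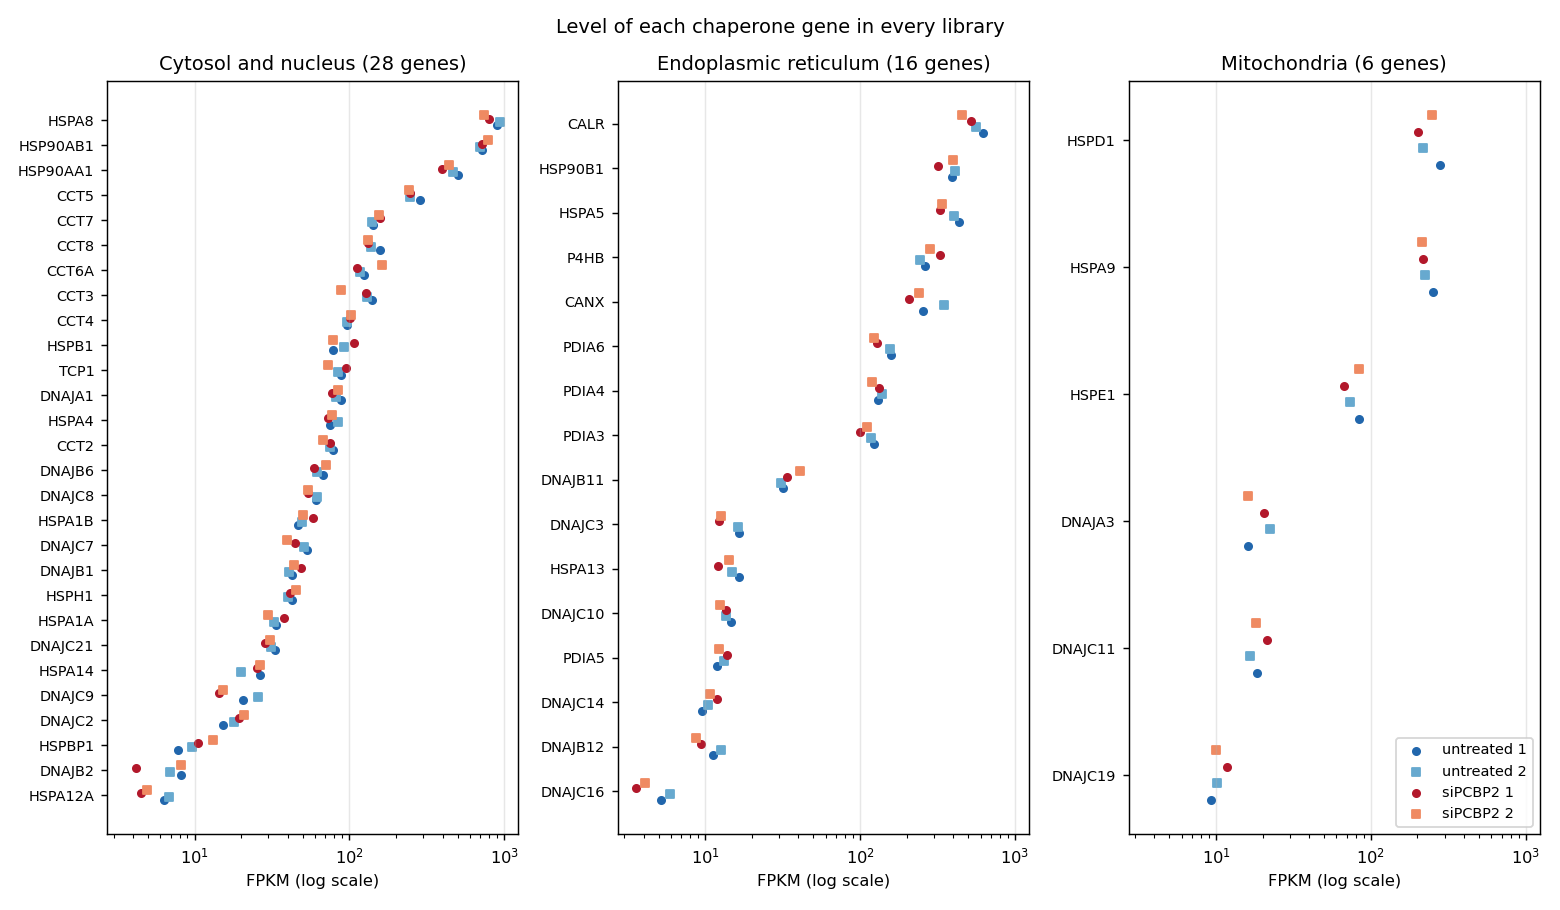
FPKM on a log axis of the 28 cytosolic and nuclear, 16 ER and 6 mitochondrial genes, with blue points for untreated and red or orange points for siPCBP2 libraries. Genes differed far more from each other (3.59 FPKM for DNAJC16 to 936 FPKM for HSPA8 in single libraries) than the 4 libraries did for most genes.

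No chaperone gene passed the test between siPCBP2 and untreated cells. Limma called 0 of 57 members at an adjusted p under 0.05, against 0.052% of all genes tested (4 of 7689), and the smallest adjusted p of a member was 0.209, for DNAJC9. At an unadjusted p under 0.05, 7 members (12.3%) were lower in siPCBP2 cells, beside 9.73% of all genes tested, and 0 were higher, beside 5.67%. The 7 were DNAJC9, HSPA5, PDIA6, DNAJC13, DNAJC3, DNAJC7 and HSPA8. By quantile normalization 2 members (3.51%) were higher at that threshold, P4HB and HSP90AB1, beside 7.53% of all genes tested, and 5 were lower, without HSPA5, DNAJC7 and HSPA8 and with CALR. After scaling to a common total P4HB and DNAJC25 were higher, beside 7.17% of all genes tested.

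The values of the groups did not overlap in 34 members: both siPCBP2 values were below both untreated values in 23 (40.4%, against 29.4% of all genes tested) and above them in 11 (19.3%, against 19.7%). The median log2 fold change of the 57 was -0.10, beside -0.037 over all genes tested. The 95% interval of the fold change lay within 1.5-fold in either direction for 35 of the 57 members (61.4%, against 45.2% of all genes tested). The estimate itself went past 1.5-fold for DNAJC9 alone (1.75%, against 7.04%). These shares were not compared at equal level: members had a median of 47.0 against 17.0 FPKM and a median SE of 0.137 against 0.157. In bulk RNA, a lower level in every cell and fewer cells that express a gene cannot be told apart.

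By compartment, the median log2 fold change was -0.22 over the 16 ER genes, -0.066 over the 28 cytosolic and nuclear genes and -0.069 over the 6 mitochondrial genes. The cytosolic median turned to 0.019 under quantile normalization, and the mitochondrial median turned to 0.034 without untreated 1 and to 0.024 without siPCBP2 1. The ER median stayed between -0.27 and -0.16 under each alternative run. Over all genes tested, values did not overlap and were lower in 29.4% and higher in 19.7%. ER genes had non-overlapping lower values in 10 of 16 (62.5%) and higher ones in 3 (18.8%). Cytosolic and nuclear genes had lower ones in 10 of 28 (35.7%) and higher ones in 6 (21.4%), near the shares over all genes. Mitochondrial genes had lower ones in 1 of 6 and higher ones in 0. The difference between compartments was not tested, since genes of a compartment are not replicates.

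Summed levels draw on the same values and rest on the highest genes: 5 genes made up 78.7% of the ER sum. In these sums the ER genes stood lowest against untreated cells. No sum was computed after quantile normalization. ER chaperones summed to 2504 and 2501 FPKM in untreated and to 2171 and 2183 FPKM in siPCBP2 libraries, a ratio of 0.870. Cytosolic and nuclear chaperones summed to 3939 and 3844 against 3672 and 3679 FPKM, a ratio of 0.944. Neither pair of ranges overlapped, while the mitochondrial sums did, at 658 and 562 against 538 and 589.9 FPKM. As shares of all listed FPKM, ER chaperones held 0.674% and 0.665% in untreated and 0.574% and 0.619% in siPCBP2 libraries. Cytosolic and nuclear chaperones held 1.06% and 1.02% against 0.971% and 1.04%, so that on this scale their ranges overlapped. No p is given for sums, since exact permutation over 2 libraries against 2 cannot reach 0.05.

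**Figure D2:**
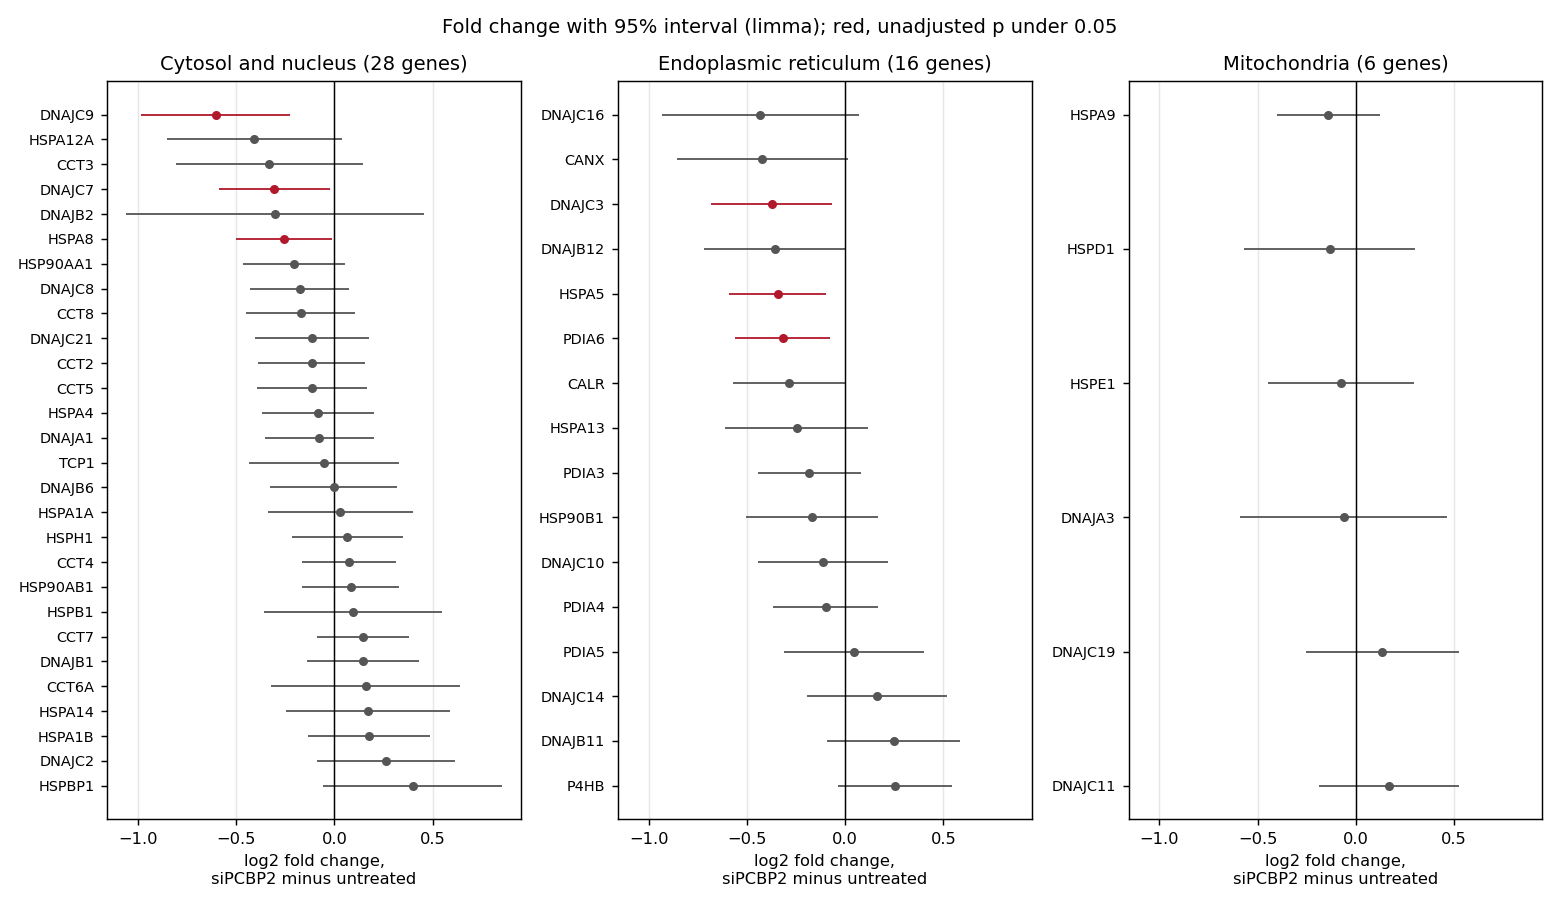
Log2 fold change of siPCBP2 against untreated cells, on the log2(FPKM + 1) scale, for the members of 3 compartments, with points for estimates, lines for 95% intervals from limma and red for an unadjusted p under 0.05. Of the ER estimates 12 lie below 0 and 4 above, and the cytosolic and mitochondrial estimates lie on both sides.

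Among the ER genes, the central HSP70 of the compartment, the main lectin chaperones and the isomerase PDIA6 had lower values in siPCBP2 cells, while the isomerase P4HB had higher ones. HSPA5 (BiP), the HSP70 protein of the ER lumen, measured 439 and 405 FPKM in untreated and 327 and 337 FPKM in siPCBP2 libraries. Its groups did not overlap, and the mean went from 422 ± 23.9 to 332 ± 7.13 FPKM (SD, n = 2), a ratio of 0.787. The log2 fold change was -0.34 (SE 0.10, unadjusted p = 0.0147, adjusted p = 0.229 by limma), and -0.19 after quantile normalization (unadjusted p = 0.0678).

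HSP90B1 (GRP94), the HSP90 protein of the ER, measured 394 and 412 against 321 and 399.9 FPKM. Its siPCBP2 libraries lay far apart, and siPCBP2 2 fell inside the untreated range (log2 fold change -0.17, SE 0.13). The estimate was -0.010 without siPCBP2 1, -0.33 without siPCBP2 2 and -0.028 after quantile normalization. CALR (calreticulin), the soluble lectin chaperone, measured 623 and 564 against 519 and 457 FPKM. CANX (calnexin), its membrane-bound relative, measured 256 and 347 against 207 and 240.1 FPKM. Both lectin genes were lower in each siPCBP2 library than in each untreated one, with ratios of 0.821 and 0.740. Their log2 fold changes were -0.28 (SE 0.11, unadjusted p = 0.0517) and -0.42 (SE 0.17, unadjusted p = 0.0561), and CALR stood at -0.18 after quantile normalization. CANX rested on the untreated pair, with -0.64 without untreated 1 and -0.20 without untreated 2.

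The disulfide isomerases did not share a direction. PDIA6, an isomerase that also acts on the stress sensor IRE1, measured 159 and 155 against 129 and 123 FPKM, which did not overlap. Its ratio was 0.802 and its log2 fold change -0.32 (SE 0.10, unadjusted p = 0.0192, adjusted p = 0.243 by limma). P4HB, the prototype disulfide isomerase and also the beta subunit of collagen prolyl hydroxylase, measured 263 and 245 against 326 and 281 FPKM. Its siPCBP2 values were both above the untreated ones, with a ratio of 1.20 and a log2 fold change of 0.26 (SE 0.12, adjusted p = 0.361 by limma). PDIA3 (ERp57), which works with the lectin chaperones on glycoproteins, measured 122 and 117 against 101 and 110.4 FPKM. PDIA4 (ERp72) measured 130.4 and 138 against 132 and 119 FPKM, and PDIA5 11.8 and 13.3 against 13.8 and 12.2 FPKM. The PDIA3 groups did not overlap (log2 fold change -0.18, SE 0.10), and those of PDIA4 and PDIA5 did.

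The J-domain partners of HSPA5 were much lower than HSPA5 itself. DNAJC3 (p58IPK), a partner that also restrains the kinase PERK, measured 16.5 and 16.3 against 12.2 and 12.7 FPKM. The replicate pairs lay close together and apart from each other, at a log2 difference of -0.37 (SE 0.12, unadjusted p = 0.0259, adjusted p = 0.268 by limma). DNAJB11 (ERdj3), a partner that binds substrates in the lumen, measured 31.7 and 30.8 against 33.9 and 41.0 FPKM. Its values were higher in both siPCBP2 libraries, opposite to HSPA5, at a log2 difference of 0.25 (SE 0.13, unadjusted p = 0.121). Of the remaining 5 ER members, DNAJB12, DNAJC16, HSPA13 and DNAJC10 were lower without overlap (log2 fold changes of -0.36, -0.43, -0.25 and -0.11) and DNAJC14 was higher (0.16). Their means over the 4 libraries ran from 4.69 FPKM for DNAJC16 to 14.4 FPKM for HSPA13.

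**Figure D3:**
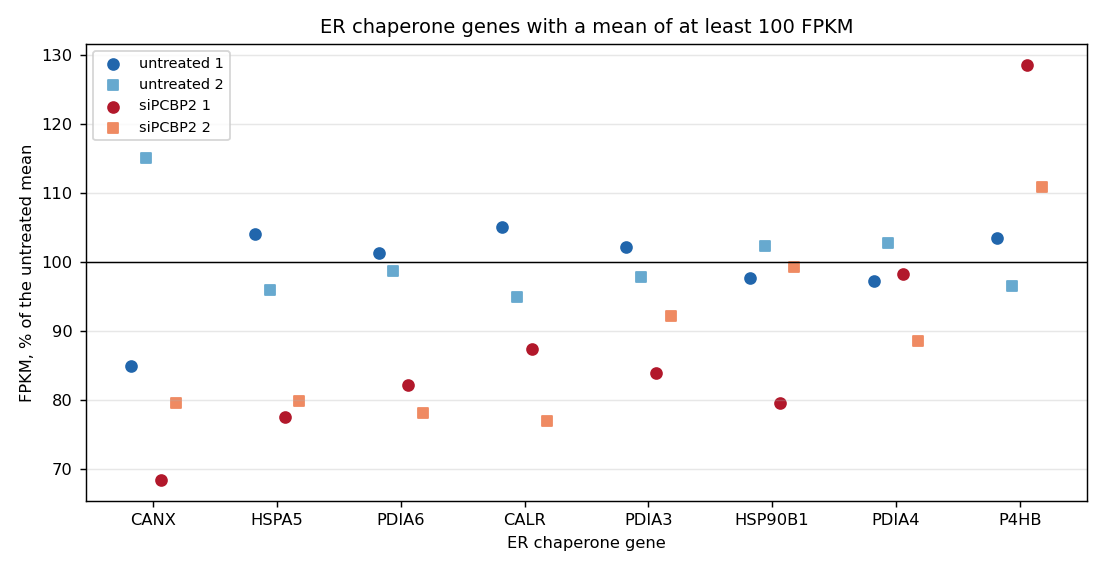
FPKM in each library as a percentage of the untreated mean of the gene, for the 8 ER genes with a mean of at least 100 FPKM, with 1 point per library. HSPA5, CALR, CANX, PDIA6 and PDIA3 lie lower in both siPCBP2 libraries, P4HB lies higher, and HSP90B1 and PDIA4 overlap.

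The promoters of these genes were read next. The ER stress response element (ERSE) through which ATF6 and the factor NF-Y act is spelled CCAAT, then 9 bases of any kind, then CCACG. It was searched on both strands of the 250 bases before each transcription start in RefSeq promoters of build GRCh38.p14, in which 52 of the 57 members had a window. The exact element stood in 0.0741% of all 35093 windows (25 of 27305 genes), and in 5 members, all of them ER genes: HSPA5, HSP90B1, CALR, CANX and PDIA6. ATF6 is known to raise ER chaperone genes, so that finding its element in such genes is no independent result. The windows are shown because these 5 genes include the highest ER chaperones with lower values in siPCBP2 cells, and each stands 5′ to 3′ in the direction of the gene, with the ERSE in capitals (the reverse complement where it lies on the other strand). HSPA5 lies at chr9:125241344-125241593 (minus strand), HSP90B1 at chr12:103930160-103930409 (plus strand), CALR at chr19:12938359-12938608 (plus strand), CANX at chr5:179698679-179698928 (plus strand) and PDIA6 at chr2:10812786-10813035 (minus strand).
HSPA5: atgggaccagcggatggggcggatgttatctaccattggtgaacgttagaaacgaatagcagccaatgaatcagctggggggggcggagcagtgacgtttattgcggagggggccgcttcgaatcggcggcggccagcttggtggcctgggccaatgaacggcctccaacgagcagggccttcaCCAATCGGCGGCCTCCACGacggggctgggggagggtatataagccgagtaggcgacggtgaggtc
HSP90B1: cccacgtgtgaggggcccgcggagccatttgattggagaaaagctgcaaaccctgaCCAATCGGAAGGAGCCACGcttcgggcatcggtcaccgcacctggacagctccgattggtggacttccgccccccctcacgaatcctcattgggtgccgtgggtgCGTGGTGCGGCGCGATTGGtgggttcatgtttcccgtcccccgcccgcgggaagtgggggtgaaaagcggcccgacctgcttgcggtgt
CALR: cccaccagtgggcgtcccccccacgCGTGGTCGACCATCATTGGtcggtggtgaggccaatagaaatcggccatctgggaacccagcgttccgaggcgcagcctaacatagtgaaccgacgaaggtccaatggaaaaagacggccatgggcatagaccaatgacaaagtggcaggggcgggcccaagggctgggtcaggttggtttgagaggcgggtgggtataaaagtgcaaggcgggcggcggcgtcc
CANX: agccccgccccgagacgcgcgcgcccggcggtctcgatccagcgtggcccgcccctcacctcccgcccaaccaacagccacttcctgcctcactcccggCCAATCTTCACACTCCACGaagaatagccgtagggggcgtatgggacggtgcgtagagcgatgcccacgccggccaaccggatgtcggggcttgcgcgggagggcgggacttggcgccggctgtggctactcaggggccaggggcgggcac
PDIA6: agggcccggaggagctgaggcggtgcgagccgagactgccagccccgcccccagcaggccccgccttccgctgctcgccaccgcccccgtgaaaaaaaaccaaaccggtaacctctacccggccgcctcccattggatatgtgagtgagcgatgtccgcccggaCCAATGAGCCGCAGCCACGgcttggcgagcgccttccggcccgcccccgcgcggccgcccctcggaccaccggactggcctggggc

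HSP90B1 had 2 such elements and the other 4 genes 1 each. In HSPA5 the element ended 47 bases before the start that the window belongs to, in PDIA6 67, in CANX 132 and in CALR 206. CANX had 4 windows, 2 of them with the element, and PDIA6 had 2, of which 1 held it. The windows shown are ones that hold it, and their starts lie 20301 and 25192 bases inside the deposited gene spans of CANX and PDIA6. Which start was used in these cells was not tested. All 5 genes had negative log2 fold changes, from -0.42 to -0.17 with a median of -0.32, as did 55.6% of all genes tested. By limma the unadjusted p was 0.0147 for HSPA5, 0.0192 for PDIA6, 0.0517 for CALR, 0.0561 for CANX and 0.257 for HSP90B1. The sign of HSP90B1 is thus uncertain too. The 10 ER members that had a window but no exact ERSE held 6 lower and 4 higher values. They ran from -0.43 to 0.26 with a median of -0.11. The lowest were DNAJC16, DNAJC3 and DNAJB12, at -0.43, -0.37 and -0.36. The genes with and without the element were not tested against each other. The table listed 4 further genes with an exact ERSE that are not chaperones of this group. EIF2A, SERP1 and XBP1 had log2 fold changes of 0.15, 0.029 and 0.15, and TRIM5 one of -0.28. Their unadjusted p-values by limma were 0.244, 0.891, 0.500 and 0.289 in this order, so that the signs of these 4 are uncertain. A match is a description of letters and was not tested as a binding site or a cause.

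P4HB was chosen by its values, as the highest of the 3 ER genes that were higher without overlap in siPCBP2 cells. Its window is shown for comparison, at chr17:81860536-81860785 (minus strand). These letters of the exact ERSE are not in its window, although CCAAT alone is, as it is in 32.0% of all windows.
P4HB: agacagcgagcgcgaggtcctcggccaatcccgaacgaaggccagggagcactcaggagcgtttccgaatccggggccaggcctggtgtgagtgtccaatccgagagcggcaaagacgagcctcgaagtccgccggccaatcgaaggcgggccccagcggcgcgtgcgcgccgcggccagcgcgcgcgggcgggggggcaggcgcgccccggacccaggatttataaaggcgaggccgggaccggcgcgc

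In the cytosol, the constitutive HSP70 gene HSPA8 had lower values in both siPCBP2 libraries, and the stress-inducible HSP70 genes HSPA1A and HSPA1B did not. HSPA8 (HSC70), which folds new proteins and uncoats clathrin vesicles, had the highest level of all members, at 899 and 936 FPKM in untreated and 799 and 739 FPKM in siPCBP2 libraries. Its groups did not overlap, the ratio was 0.838, and the log2 fold change was -0.26 (SE 0.10, unadjusted p = 0.0439, adjusted p = 0.313 by limma). After quantile normalization the log2 fold change of HSPA8 was -0.025. In the authors' deposited table the fold of HSPA8, untreated over siPCBP2, was 1.19 with p = 0.00449.

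HSPA1B measured 46.4 and 49.2 against 58.5 and 50.0 FPKM, and HSPA1A 33.4 and 32.8 against 38.1 and 30.002 FPKM. The genes are near copies: 69.9% of the 100-base stretches of the HSPA1A transcript occur unchanged in HSPA1B, so how the fragments were divided between them is uncertain. Their sum was 79.8 and 81.9 against 96.6 and 80.0 FPKM, which overlapped. HSPH1 (HSP110), a nucleotide exchange factor of HSP70, measured 42.3 and 40.1 against 41.2 and 45.2 FPKM, and HSPB1 (HSP27), a small heat shock protein, 78.9 and 92.6 against 107 and 78.1 FPKM. Both overlapped between groups. HSPBP1, another exchange factor, and HSPA12A, a distant HSP70 relative, had log2 fold changes of 0.40 and -0.41 at mean levels of 10.3 and 5.66 FPKM, neither at an unadjusted p under 0.05.

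The cytosolic HSP90 genes also differed from each other. HSP90AA1, the inducible form, measured 500.3 and 468 against 399.6 and 441 FPKM, and HSP90AB1, the constitutive form, 721 and 697 against 719 and 783 FPKM. The HSP90AA1 groups did not overlap (log2 fold change -0.21, SE 0.10, unadjusted p = 0.10001). HSP90AB1 overlapped, with a log2 fold change of 0.082 and a 95% interval from -0.16 to 0.33.

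The heat shock element (HSE) bound by HSF1 was searched as inverted units (GAA, any 2 bases and TTC, or TTC, any 2 bases and GAA) on both strands of the same 250-base windows. At least 1 such pair of units stood in 11.6% of all windows and in 13 members, 11 of them cytosolic or nuclear. A run of 3 alternating units stood in 0.442% of windows (0.557% of genes) and in 5 of the 52 members. These were DNAJB6, HSP90AA1, HSP90AB1, HSPA8 and HSPD1, whose log2 fold changes lay on both sides of 0. The windows of HSPA8 at chr11:123062137-123062386 (minus strand) and HSPA1A at chr6:31815293-31815542 (plus strand) are shown as the constitutive and inducible HSP70 genes, with the HSE in capitals.
HSPA8: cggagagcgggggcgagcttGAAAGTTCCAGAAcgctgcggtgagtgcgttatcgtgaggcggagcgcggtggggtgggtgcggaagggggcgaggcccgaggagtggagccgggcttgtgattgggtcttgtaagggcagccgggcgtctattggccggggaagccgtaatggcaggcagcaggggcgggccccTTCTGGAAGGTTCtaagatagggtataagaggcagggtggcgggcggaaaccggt
HSPA1A: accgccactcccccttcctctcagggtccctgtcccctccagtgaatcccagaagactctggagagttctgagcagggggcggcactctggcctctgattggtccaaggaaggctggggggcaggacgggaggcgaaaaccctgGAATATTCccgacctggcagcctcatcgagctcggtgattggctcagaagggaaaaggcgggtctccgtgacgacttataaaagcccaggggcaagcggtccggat

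HSPA8 held 4 overlapping matches in 2 runs, and HSPA1A held 1 match. In siPCBP2 1 and 2 HSPA8 lay below both untreated values, whereas HSPA1A lay above them in siPCBP2 1 and below them in siPCBP2 2.

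Among the cytosolic J-domain genes, DNAJA1 and DNAJB1 are partners of HSP70 in folding and in disaggregation, and neither had an unadjusted p under 0.05. DNAJA1 measured 88.5 and 82.2 against 76.9 and 84.9 FPKM and DNAJB1, an HSF1 target, 42.5 and 40.7 against 48.7 and 43.8 FPKM. The DNAJB1 values were higher in both siPCBP2 libraries (log2 fold change 0.15, SE 0.11, unadjusted p = 0.248). DNAJC9, a histone chaperone with a J domain, had the largest difference of all 57 members in either direction on the log2 scale, at 20.5 and 25.6 against 14.3 and 15.2 FPKM. Its ratio was 0.640 and its log2 fold change -0.60 (SE 0.15, unadjusted p = 0.00883, adjusted p = 0.209 by limma). DNAJC9 shares an exon with the coding gene MRPS16 in GENCODE 29, so its value depends on how shared fragments were divided. DNAJC7, which carries clients between HSP70 and HSP90, measured 53.0 and 51.1 against 44.2 and 39.7 FPKM. Its groups did not overlap (log2 fold change -0.31, SE 0.11, unadjusted p = 0.0392, adjusted p = 0.303 by limma).

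The 8 subunits of TRiC, the ring that folds actin and tubulin, overlapped in their summed level. Their median was lower in siPCBP2 cells in FPKM, but not as a share of all listed FPKM. A ring of the assembled protein holds 1 copy of each. They summed to 1112 and 1028 FPKM in untreated and to 1047 and 1022 FPKM in siPCBP2 libraries, which overlapped. Their median was 132 and 123 against 120.01 and 117 FPKM, which did not. All listed FPKM summed to 376347 in untreated 2 and to 352964 in siPCBP2 2. As a share of these sums the median of siPCBP2 2 lay above that of untreated 2, so that on this scale the groups overlapped. CCT5 was the highest and CCT2 the lowest subunit in all 4 libraries, and TCP1 held rank 7 in each, while the other 5 changed places in at least 1 library. The highest subunit stood at 3.61, 3.27, 3.32 and 3.57 times the lowest in untreated 1 and 2 and siPCBP2 1 and 2.

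CCT5 measured 285 and 246 against 247.5 and 241 FPKM, and CCT2 78.9 and 75.1 against 74.6 and 67.7 FPKM. CCT8 measured 159 and 139 against 131.5 and 131.7 FPKM, and CCT7 141 and 140.4 against 157 and 155 FPKM. Of the 8 subunits 3 were lower in siPCBP2 libraries without overlap, CCT2, CCT3 and CCT8 (37.5%, against 29.4% of all genes tested). CCT4 and CCT7 were higher without overlap (25.0%, against 19.7%). The log2 fold changes of CCT8 and CCT7 were -0.17 (SE 0.11) and 0.14 (SE 0.09). No subunit had an unadjusted p under 0.05 by limma. CCT4 measured 96.0 and 97.0 against 100.8 and 102.6 FPKM, and TCP1 88.7 and 84.7 against 95.4 and 73.1 FPKM. CCT3 and CCT6A had their widest change of place in siPCBP2 2: CCT3 measured 139.7 and 129.7 against 128.5 and 88.7 FPKM, and CCT6A 124 and 117 against 112 and 163 FPKM. The ratio of CCT6A to CCT3 was 0.888, 0.903 and 0.868 in untreated 1, untreated 2 and siPCBP2 1, and 1.83 in siPCBP2 2. Without siPCBP2 2, the log2 fold change of CCT3 was -0.067 and that of CCT6A was -0.11.

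**Figure D4:**
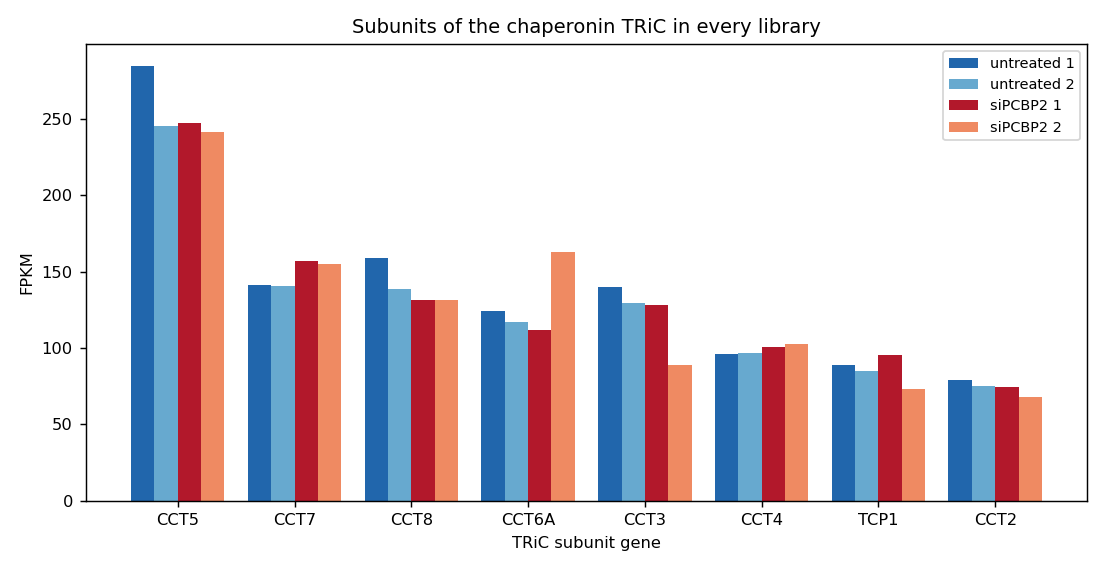
FPKM of the 8 TRiC subunits in each of the 4 libraries, with 1 bar per library. CCT5 lies above and CCT2 below all others in each library, and CCT6A stands above CCT3 only in siPCBP2 2.

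The mitochondrial chaperones gave the least separation. HSPD1 (HSP60), the chaperonin of the matrix, measured 279 and 216 against 201 and 249 FPKM, and HSPE1 (HSP10), its lid, 84.2 and 73.9 against 66.8 and 83.6 FPKM. In each group the library with the higher HSPD1 also had the higher HSPE1, and their ratio was 3.32, 2.92, 3.00 and 2.98 in untreated 1 and 2 and siPCBP2 1 and 2. These genes lie head to head on chromosome 2, and 281 of the 1977 exonic bases of HSPE1 in GENCODE 29 also lie in exons of HSPD1 on the other strand, where reads cannot be told apart without strand. Strand retention is not given in the sources used here. HSPA9 (mortalin), the matrix HSP70 that pulls in imported proteins, measured 250.5 and 223 against 217 and 213 FPKM, without overlap (log2 fold change -0.14, SE 0.10, unadjusted p = 0.234). DNAJA3 measured 16.01 and 22.5 against 20.5 and 16.1 FPKM and DNAJC11, a protein of the cristae junction complex, 18.4 and 16.5 against 21.3 and 18.2 FPKM. Both overlapped, as did DNAJC19.

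Of the 5 members placed elsewhere, DNAJC13, which acts in sorting at endosomes, measured 20.9 and 17.7 against 13.8 and 13.9 FPKM, without overlap. Its log2 fold change was -0.45 (SE 0.14, unadjusted p = 0.0194, adjusted p = 0.244 by limma). DNAJC25 and DNAJC24 were higher without overlap (log2 fold changes of 0.50 and 0.26), HSPB11 was lower (-0.17), and DNAJC6 overlapped. The read-through genes DNAJC25-GNG10 and HSPE1-MOB4 overlapped between groups, and the latter ranged from 1.94 to 7.03 FPKM. Of the 57 members 9 share exons with another coding gene and 15 have pseudogenes named after them in GENCODE 29, among them HSPE1 with 26, HSPA8 and HSPD1 with 17 each and DNAJC19 with 9. FPKM of these genes depends on how the authors' quantifier treated fragments with several matches. Only pseudogene names made of a member's full symbol, P and any digits were counted. HSP90AA1, HSP90AB1, HSP90B1 and CCT6A had 0 by this rule, which does not show that they have none.

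The authors' deposited table ranks the members in another way. At its p under 0.05 stood 7 of the 57 members, 12.3% against 8.48% of all 7698 listed genes, of which 4 were lower and 3 higher in siPCBP2 cells, and its lowest q for a member was 0.517. These were DNAJC11, DNAJC16, DNAJC6, HSPA8, HSPBP1, P4HB and TCP1, of which HSPA8 alone was also under 0.05 by limma. In the authors' deposited table TCP1 had p = 0.00979 at a fold of 1.03, untreated over siPCBP2, although its groups overlapped, while HSPA5 had p = 0.203 at a fold of 1.27. What test gave those p-values is not given in the sources used here.

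Partners of the chaperones, the cofactors and enzymes that work with them, were read from 4 lists, with shares to be set beside 5.67% of all genes higher and 9.73% lower. Among 17 listed cytosolic cochaperones of 24 in a fixed list, 0 were lower and 1 higher (5.88%) at an unadjusted p under 0.05: CDC37, which loads kinases onto HSP90, measured 48.9 and 49.8 against 61.8 and 59.9 FPKM (log2 fold change 0.30, SE 0.10). Among 8 of 9 prefoldin subunits and chaperonin cofactors 1 was lower (12.5%), PDCL3, a phosducin-like TRiC cofactor, at 15.0 and 15.6 against 11.5 and 11.5 FPKM (log2 fold change -0.39). Among 25 of 34 ER folding partners 1 was lower (4%), ERO1A, the oxidase that recharges disulfide isomerases, at 50.8 and 52.2 against 38.8 and 42.2 FPKM (log2 fold change -0.34, SE 0.11). Among 15 of 16 mitochondrial folding partners and proteases 1 was higher (6.67%), PAM16, a part of the import motor that regulates mitochondrial HSP70, at 6.56 and 5.32 against 12.2 and 8.24 FPKM (log2 fold change 0.68). None of these passed after adjustment over all genes by limma, and the medians of the 4 lists were 0.026, -0.12, -0.083 and 0.080, beside -0.037 over all genes tested.

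The transcription factors of the heat shock and unfolded protein responses were listed for 9 of 12. At an unadjusted p under 0.05 by limma, 1 was lower (11.1%, against 9.73% of all genes tested) and 1 higher (11.1%, against 5.67%). DDIT3 (CHOP), which is induced in ER stress, measured 9.45 and 14.8 against 5.28 and 7.66 FPKM, and ATF5, a factor of the mitochondrial and integrated stress responses, 10.3 and 9.87 against 13.8 and 14.6 FPKM. The log2 fold changes were -0.80 (SE 0.27, adjusted p = 0.277 by limma) and 0.46 (SE 0.13, adjusted p = 0.229 by limma). HSF1 measured 17.4 and 21.4 against 29.5 and 20.7 FPKM and XBP1 28.6 and 36.7 against 42.7 and 30.5 FPKM, and both overlapped. ATF4 measured 55.3 and 48.8 against 45.9 and 45.5 FPKM, without overlap (log2 fold change -0.18, unadjusted p = 0.170 by limma). ATF6B was higher without overlap, at 22.4 and 26.1 against 30.1 and 28.1 FPKM (log2 fold change 0.25, unadjusted p = 0.104 by limma). Of the 9 factors 3 were lower without overlap (33.3%, against 29.4% of all genes tested) and 2 higher (22.2%, against 19.7%).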

How the data were processed

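RNA of 4 libraries of MDA-MB-231 cells was compared, 2 untreated and 2 siPCBP2. The submitters' processing notes name build hg38 and the tools HISAT2 2.0, Trimmomatic 0.36, bedtools 2.26.0 and FastQC 0.11.2, and per the labels' protocols the libraries were poly(A)-selected and sequenced in paired ends. The quantifier, the annotation and strand retention are not given in the sources used here. Deposited values were read as FPKM from their range and sums, since the header names no unit, so levels of different genes compare per length only if that reading holds. The deposited ratio (fold) is untreated over siPCBP2, and the p-values and q-values beside it are the authors'. There were 0 columns of other series.

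The filter kept 7689 of 7698 genes, those that reached 1 FPKM in 2 or more libraries. Limma 3.58.1 (R 4.3.3) was fitted to log2(FPKM + 1) with a mean-variance trend and two-sided tests, with Benjamini-Hochberg adjustment over all genes tested at a threshold of 0.05. The pseudocount of 1 understates changes of low genes. The fit was tested on simulated data. Named with all values were members at an unadjusted p under 0.05, the 5 highest per compartment and a list of well-known chaperones. Others that the text names were chosen after their values were seen. Compartments and partner lists were written by hand from general knowledge, and the read-through class was added on seeing the table. The members and lists were chosen with earlier results of these data known. Alternatives were another pseudocount, no filter or a stricter one, quantile normalization, scaling to a common total, no trend, the replicate number as a block, each library left out, and shares without the mitochondrially encoded mRNAs. The ERSE, HSE and other motifs were searched in RefSeq promoter sequences.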

Additional observations from a re-analysis of the deposited data

How the results depend on the processing

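Under every alternative run, 0 of the 57 members were called. The count of all genes called went from 4 to 2 under quantile normalization, to 2 after scaling to a common total, to 0 with no mean-variance trend and to 0 with any 1 library left out. Members lower at an unadjusted p under 0.05 went from 7 to between 2 and 7 with a library left out: 2 (3.51%) without untreated 1, beside 4.68% of all genes tested, and 2 without untreated 2, beside 5.54%. They numbered 5 under quantile normalization (8.77%, beside 7.96%), 7 after scaling to a common total (12.3%, beside 8.01%) and 8 with no trend (14.04%, beside 9.79%). Members higher went from 0 to 2 under quantile normalization, 2 after scaling to a common total, 1 with no trend (DNAJC25) and between 0 and 3 with a library left out (3 without siPCBP2 1, 1 without siPCBP2 2). The cytosolic median moved to 0.019 under quantile normalization and ran from -0.081 to -0.020 with a library left out. The ER median moved to -0.16 under quantile normalization and -0.18 after scaling to a common total, and ran from -0.27 to -0.17 with a library left out. The mitochondrial median ran from -0.039 to 0.034 with a library left out. Quantile normalization reversed DNAJA1 (0.0040) and TCP1 (0.028). With a library left out, log2 fold changes reversed within these ranges: TCP1 -0.24 to 0.14, HSPB1 -0.13 to 0.32, HSPD1 -0.32 to 0.052, HSPE1 -0.24 to 0.083, DNAJA3 -0.29 to 0.17, HSPA1A -0.14 to 0.20 and CCT6A -0.11 to 0.43. The cause of these shifts was not tested. With the replicate number as a block, 0 genes were called over all genes. At an unadjusted p under 0.05 by limma, 5 members were then lower (8.77%, beside 7.84% of all genes tested). The numbers are only names as far as the labels go: deviations of the libraries numbered 1 correlated at r = -0.0888, so no pairing was taken from them. With 2 libraries per group and depth unknown, the 95% interval stayed within 1.5-fold for 35 of the 57 members. The share was larger than over all genes tested, whose median level was lower.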

Other observations

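Ratios between genes of the same library do not depend on how the library was scaled to its total. They can still change under quantile normalization, which moved the log2 fold change of HSPA8 from -0.26 to -0.025. The pairs here were chosen after their values were seen and were not tested. HSP90AB1 stood at 1.44 and 1.49 times HSP90AA1 in untreated and at 1.80 and 1.78 times in siPCBP2 libraries. P4HB stood at 1.65 and 1.58 times PDIA6 in untreated and at 2.53 and 2.29 times in siPCBP2 libraries. HSPA5 stood at 13.8 and 13.2 times its J-domain partner DNAJB11 in untreated and at 9.66 and 8.22 times in siPCBP2 libraries. HSPA8 stood at 11.3 and 11.4 times the sum of HSPA1A and HSPA1B in untreated and at 8.27 and 9.23 times in siPCBP2 libraries. In each of these pairs the groups did not overlap. For P4HB with PDIA6 and for HSPA5 with DNAJB11 this was fixed in advance. Each gene of these pairs was already separate between groups, in opposite directions. HSPA8 and HSP90AA1 were also lower without overlap by themselves. The ratio of CALR to CANX, the lectin chaperones, was 2.43 and 1.62 against 2.51 and 1.90, which overlapped. The 8 ER chaperones at 100 FPKM or more summed to 2387 and 2383 FPKM in untreated and to 2061 and 2067 FPKM in siPCBP2 libraries, a ratio of 0.865.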
